A study of Mus musculus with 12 samples.

Results

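Nfe2, Nfe2l1, Nfe2l2, Bach1, Maff, Mafg, Mafk and Maf encode basic leucine zipper transcription factors of the NF-E2, BACH and MAF families, and 101 of the 84243 regions of open chromatin in a list of mouse blood cells carried the name of 1 of these 8 genes. A region was counted for a gene when the list named that gene, which HOMER assigns by the nearest transcription start site (TSS). The regions are ATAC-seq peaks: a transposase inserts adapters where DNA is accessible, and the sequenced fragments pile up there. The study asked whether regulatory elements of all blood lineages are already open in hematopoietic stem cells (HSCs), and compared HSCs with 5 unipotent cell types. Each of the 6 cell types had 2 replicates, and all 12 samples came from C57BL/6 wild-type mice aged 8 to 12 weeks, with no allele or treatment added.

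HSCs were sorted from bone marrow as cKit+ Lin- Sca1+ Flk2- Slamf1+ cells, and megakaryocyte progenitors (MkPs) as cKit+ Lin- Sca1- Slamf1- CD41+ cells. Erythroid progenitors (EPs) were CD71+ and of any Ter119 level, granulocyte/macrophages (GMs) were positive for both Gr1 and Mac1, and B cells were CD43- B220+, all also from bone marrow. T cells were CD25- CD3+ with any level of CD4 and CD8, and their labels give thymus as the source. The authors merged and filtered the peaks of all 6 cell types into 1 master peak-list with 0 columns of values per sample. It does not say in which cell type a peak was open, its score was 0 at every peak, and the depth behind a peak is unknown. Positions and counts of peaks therefore have no error between replicates, no cell types were compared, the sorted identities could not be checked against markers, and no test was made. A 95% Wilson interval beside a share covers counting error only. It treats peaks as independent, although several come from the same gene.

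As background, NF-E2 is a pair of a CNC subunit, encoded by Nfe2, and a small MAF protein, and it is known for its part in globin expression in red cell precursors and in platelet formation by megakaryocytes. The related CNC factors of Nfe2l1 and Nfe2l2 (NRF1 and NRF2) pair with the same small MAFs to switch on proteasome, antioxidant and detoxification genes. BACH1 takes the same partners and the same sites as a repressor until heme binds it. Small MAFs have no activation domain of their own, whereas the large MAF protein of Maf activates genes in T cells and macrophages.

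The sequences below show which DNA was accessible at the starts of these genes and where sites for the factors themselves occurred. They were read from the RefSeq genome of GRCm38.p6 (mm10), 5′ to 3′. The RefSeq promoter table held 6 of the 8 genes and had no entry for Nfe2 or Maf. The table gave the 120 bases before 10 TSSs with a peak centred within 500 bp, and the first set shows the 6 of them that held a GC box, on the strand of the gene. Capitals mark exact matches, on either strand, to the GC box (GGGCGGG, also read as CCCGCCC), the ETS motif (CCGGAAG), the CRE core (TGACGTCA) and the antioxidant response element (ARE, TGACNNNGC, the site of NRF2 and small MAF). In Mafk an ETS match runs into an ARE match read on the other strand.
Nfe2l1, chr11:96829969-96830088, minus strand: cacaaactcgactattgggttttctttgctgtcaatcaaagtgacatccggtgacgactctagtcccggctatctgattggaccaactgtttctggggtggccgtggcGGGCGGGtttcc
Nfe2l1, chr11:96829503-96829622, minus strand: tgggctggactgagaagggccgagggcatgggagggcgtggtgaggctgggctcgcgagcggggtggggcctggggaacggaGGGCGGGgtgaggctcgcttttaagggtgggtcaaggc
Nfe2l2, chr2:75704664-75704783, minus strand: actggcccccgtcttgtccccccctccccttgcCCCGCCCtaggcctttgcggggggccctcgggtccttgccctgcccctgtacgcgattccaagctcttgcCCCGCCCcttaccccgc
Bach1, chr16:87698834-87698953, plus strand: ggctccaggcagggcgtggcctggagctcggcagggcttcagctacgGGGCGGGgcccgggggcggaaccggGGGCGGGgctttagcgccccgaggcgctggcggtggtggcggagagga
Maff, chr15:79347400-79347519, plus strand: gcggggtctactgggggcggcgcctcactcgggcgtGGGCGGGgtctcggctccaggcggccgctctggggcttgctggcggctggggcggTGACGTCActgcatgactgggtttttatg
Mafk, chr5:139791416-139791535, plus strand: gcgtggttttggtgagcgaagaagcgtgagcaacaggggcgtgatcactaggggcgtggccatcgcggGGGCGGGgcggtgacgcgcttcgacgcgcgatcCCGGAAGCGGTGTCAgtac

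The GC box was present in 2 copies in Nfe2l2 and Bach1. It was absent from the 4 stretches not shown, that of Mafg and those before the inner Nfe2l1 starts at 96824127, 96824013 and 96823931. Of the 10 stretches, only that of Maff held a CRE core and only that of Mafk an ARE, centred 3 bp from the peak centre.

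The second set holds the distal peaks with a match to the NF-E2 site (GCTGAGTCA) or to the MARE core (CTGANTCAG, the inner part of the Maf recognition element). Each match is shown in capitals with 40 bases on either side. Both motifs contain the 7 letters TGANTCA that AP-1 factors also use, and the NF-E2 site read from the other strand is an ARE match, so the motifs overlap and are not independent of each other.
Bach1 peak at +1135 bp, chr16:87700063-87700151, plus strand: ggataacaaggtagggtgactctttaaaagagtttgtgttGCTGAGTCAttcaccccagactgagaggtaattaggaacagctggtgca
Mafg peak at +3357 bp, chr11:120630170-120630258, minus strand: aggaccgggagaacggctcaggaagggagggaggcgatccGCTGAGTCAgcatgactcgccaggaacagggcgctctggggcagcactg
Maf peak at -19523 bp, chr8:115726340-115726428, minus strand: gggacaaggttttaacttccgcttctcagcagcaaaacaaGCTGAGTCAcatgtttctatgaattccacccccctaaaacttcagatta
Bach1 peak at -42022 bp, chr16:87657066-87657154, plus strand: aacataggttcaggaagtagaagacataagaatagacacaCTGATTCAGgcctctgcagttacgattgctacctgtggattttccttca
Maf peak at +138316 bp, chr8:115568704-115568792, plus strand: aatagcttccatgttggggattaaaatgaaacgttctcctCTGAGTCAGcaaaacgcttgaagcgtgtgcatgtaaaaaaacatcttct

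These 5 peaks belonged to 3 of the genes, Bach1, Mafg and Maf. The NF-E2 sites lay 18 bp from the peak centre in Bach1, 24 bp in Mafg and 33 bp in Maf. In Mafg a MARE core at 120630209-120630217 overlapped the NF-E2 site at 120630210-120630218, and only the NF-E2 site is in capitals above. The MARE cores of Bach1 and Maf lay 178 and 170 bp from their peak centres. A match is a run of letters and shows no bound factor. The NF-E2 site was searched only as GCTGAGTCA, so forms with another base in the middle of TGANTCA were not counted.

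The third set gives, for each gene with one, the TGANTCA core closest to a peak centre outside the peaks just shown, in capitals with 10 bases on either side.
Maf peak at +283650 bp, core at chr8:115423243-115423249, plus strand: gcattaactcTGAGTCAtgttggcggt
Nfe2l2 peak at +19039 bp, core at chr2:75685605-75685611, plus strand: ttcttaggaaTGACTCActcaatctaa
Bach1 peak at +14259 bp, core at chr16:87713183-87713189, plus strand: cttcagggagTGAGTCAgcagttccct
Mafk peak at +3539 bp, core at chr5:139795044-139795050, plus strand: cgaaactgctTGAGTCAcctctgcatg

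In these peaks the core lay between 2 bp (Maf) and 28 bp (Mafk) from the centre. Nfe2, Nfe2l1 and Maff had no such core in any of their peaks.

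Promoter peaks, whose centres lay at most 500 bp from a TSS, were found at all 8 genes, 13 in all, and the other 88 peaks were distal. In the whole list, 54.8% of 21000 protein-coding genes had a promoter peak. The 13 promoter peaks were 12.9% of the 101 (95% interval 7.68% to 20.8%), and promoter peaks were 15.6% of the whole list, a value inside that interval. Nfe2 had 4 promoter peaks, Nfe2l1 had 3, and each of the other 6 genes had 1. Of all protein-coding genes, 3.67% had 2 or more promoter peaks and 0.39% had 3 or more. By GENCODE basic starts Nfe2 had 2 promoter peaks and Nfe2l1 still 3, and within 100 bp of a RefSeq TSS each had 2. Both genes have several annotated TSSs, so a gene with more starts also had more places where a promoter peak could be counted.

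**Figure D1:**
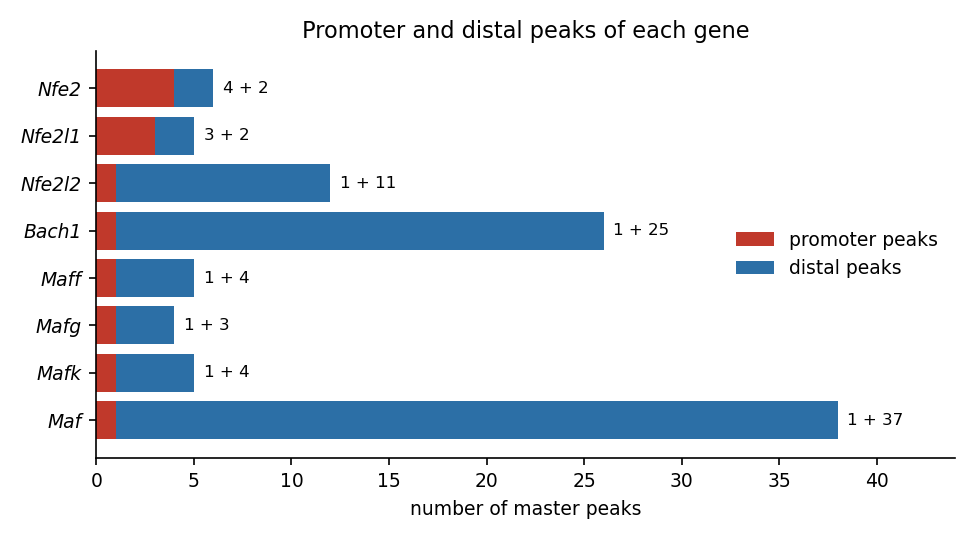
Bars give the number of master peaks named for each gene (horizontal axis), promoter peaks in red and distal peaks in blue, with both numbers printed beside the bar. Maf (1 + 37) and Bach1 (1 + 25) hold most distal peaks, whereas 4 of the 6 Nfe2 peaks are promoter peaks.

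Nfe2, the CNC subunit of NF-E2 in red cell precursors and megakaryocytes, had 6 curated RefSeq TSSs on the minus strand of chromosome 15, and every one lay within 500 bp of a peak centre. The peak at its RefSeq Select TSS (103255439), chr15:103255059-103255557, was centred 131 bp downstream of the start in the 5′ untranslated region of exon 1. The most upstream start, 103258403, had a peak centred 146 bp before it, at chr15:103258300-103258798. The inner starts at 103251687 and 103252810 had peaks centred 83 and 74 bp upstream, chr15:103251521-103252019 and chr15:103252635-103253133. By GENCODE basic starts, only the peaks at 131 bp and 94 bp from a start of Nfe2 remained promoter peaks, and those at -74 and -146 bp by RefSeq lay 1208 and 3110 bp from the nearest one. The count of 4 thus fell to 2 by GENCODE, and also to 2 within 100 bp of the RefSeq starts. The pairs differed, since the 100 bp limit kept the peaks 83 and 74 bp upstream and dropped that at the Select start.

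These inner peaks of Nfe2 differed in base composition from the others. They had GC contents of 50.9% and 47.1% with 2 and 3 CpG dinucleotides, while the peak at the Select start had 66.3% GC and 28 CpGs, and that at the most upstream start 59.9% and 13. Among the 13 promoter peaks the median GC content was 65.7% and the median CpG count 32, beside 63.3% and 38 in all promoter peaks. The inner Nfe2 peaks were the lowest of the 13 in both measures, and each lay below the lower quartile of GC content over all promoter peaks (57.5%).

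The 2 distal peaks of Nfe2 were close by, at +1271 bp from the nearest TSS in intron 2 and at -1889 bp in intergenic sequence. All 6 peaks of the gene fell within 9.89 kb. The neighbouring genes Hnrnpa1 and Copz1 have their TSSs 15.0 kb downstream and 17.4 kb upstream of the Select start of Nfe2. Around the Select start, 6 peak centres lay within 5 kb of the peak there (itself included), all of them named for Nfe2. Counting peaks of any name, 0.311% of the list reached at least that number.

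Nfe2l1, which encodes NRF1, a factor known for raising proteasome subunits, had 5 curated TSSs on chromosome 11 and all 5 lay within 500 bp of a peak centre. The outermost start (96829968, RefSeq Select) and the next one inward (96829502) each had a peak of their own, centred 177 and 38 bp upstream, at chr11:96829896-96830394 and chr11:96829291-96829789. The starts at 96824127, 96824013 and 96823931 shared the peak chr11:96823959-96824457, centred 81, 195 and 277 bp upstream of them. Its distal peaks lay at +1076 bp in intron 2 and at -7612 bp in intergenic sequence, so the whole set spanned 14.7 kb. By GENCODE basic starts, too, 3 of its peaks were promoter peaks.

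Nfe2l2, which encodes NRF2, had 1 curated TSS (75704663 on chromosome 2) and 12 peaks. Its promoter peak, chr2:75704377-75704875, was centred 37 bp downstream of the start, with 67.5% GC and 5 GC boxes, the most of the 13 promoter peaks. Distal peaks numbered 11. Of these, 6 lay in intron 1, at +717, +6473, +8073, +15079, +19039 and +21552 bp, and 5 lay upstream, at -5744, -24739, -26924, -32807 and -58846 bp. The nearest, at +717 bp, lay in a CpG island with 46 CpGs and 68.7% GC. The peak at -5744 bp lay within the noncoding gene E030042O20Rik, which starts on the other strand near the Nfe2l2 start. The next genes with a curated TSS were Hnrnpa3, 45.4 kb downstream, and Agps, 128 kb upstream.

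Bach1, the gene of the heme-sensitive repressor, had 26 peaks on chromosome 16, second to Maf. Its promoter peak, chr16:87698705-87699203, was centred on the TSS (87698954) to the base, with 72.9% GC and 64 CpGs. It held 2 GC boxes and the only TGANTCA core among the 13 promoter peaks, 48 bp downstream of the centre. Distal peaks were 25, 12 upstream and 13 downstream of the start. The nearest was at -854 bp and the farthest at +98030 bp. The peaks at -854, 0 and +1135 bp stood side by side at the start, and the last of them held the NF-E2 site printed above, in intron 1.

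Upstream of Bach1, 6 peaks lay between -45821 and -41437 bp, in intergenic sequence. Each had 6 or 7 peak centres within 5 kb, itself included. Over all genes named here, 8 of 101 peaks (7.92%, interval 4.07% to 14.9%) reached at least 6, against 0.311% of the list. The 8 were these 6, the Nfe2 peak at the Select start and the Mafg peak at +4017 bp, so they came from only 3 loci. The Bach1 peak at -42022 bp in this group held the MARE core, at chr16:87657106-87657114. Within the gene, 8 peaks lay in introns, 4 of them in intron 1 at +1135, +7325, +10345 and +14259 bp, 1 in intron 2 at +17524 bp and 3 in intron 4 at +24682, +27281 and +29999 bp. The peak at +7325 bp held 3 GATA motifs (AGATAA), the most of any peak of the 8 genes. Downstream of the gene, 5 peaks from +47957 to +98030 bp lay within the noncoding gene Gm32925, and the one at +56106 bp held adjoining TGAGTCA cores, 196 and 203 bp from its centre. Of the 26 peaks, 10 held a TGANTCA core.

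Maff, Mafg and Mafk encode the small MAFs, which dimerise with CNC factors and BACH1. They had 5, 4 and 5 peaks, and every one lay within 12.7 kb of a TSS of its gene. In Maff (chromosome 15) the promoter peak chr15:79347232-79347730 was centred 39 bp upstream of the Select start (79347520). The other 3 curated starts of Maff lay 580, 860 and 921 bp from that peak centre, and none had a peak within 500 bp. In Nfe2 and Nfe2l1 each curated RefSeq start had one. The nearest distal peak of Maff was at +2675 bp in intron 1 and the farthest at +12700 bp, in the 3′ untranslated region of the neighbouring gene Tmem184b. The peak at +9249 bp lay in exon 3 and had 71.1% GC, the highest among the 88 distal peaks.

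Mafg (chromosome 11, TSS 120633547) had a promoter peak centred 8 bp downstream of the start, chr11:120633290-120633788, with the highest GC content (76.2%) and CpG count (73) of the 13 promoter peaks. Its 3 distal peaks lay at +860 and +3357 bp in intron 1 and at +4017 bp in exon 3, none upstream. The peak at +3357 bp, chr11:120629941-120630439, held the NF-E2 site and MARE core. By the GENCODE M21 basic annotation its centre lay 42 bp upstream of a further Mafg start, so the peak is distal only by the RefSeq starts that HOMER used. Outside the annotated gene (120625117 to 120634955), the nearest other TSSs were those of Sirt7, 8.53 kb downstream, and Pycr1, 10.2 kb upstream. The annotated gene runs past the Mafg start on the upstream side, and starts within it were not searched. The 4.37 kb span nearest to Mafg is too short for Pycr1 to be the closest upstream start. Another gene's curated start thus lies nearer and would take peaks on that side. Of the 5 peaks within the annotated gene, 1 carried another name.

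Mafk (chromosome 5, TSS 139791536) had a promoter peak centred 6 bp upstream of its start, chr5:139791281-139791779, with 68.7% GC and 57 CpGs. The distal peak at +506 bp, in a CpG island of intron 1, fell just outside the 500 bp limit. The promoter peak of Maf at -429 bp was the one just inside it. The farthest Mafk peak, at +3539 bp in intron 1, held both a TGANTCA core, 28 bp from the centre, and an ARE match, 1 bp from it. The neighbours Ints1 and Tmem184a have TSSs 15.9 kb upstream and 21.7 kb downstream.

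**Figure D2:**
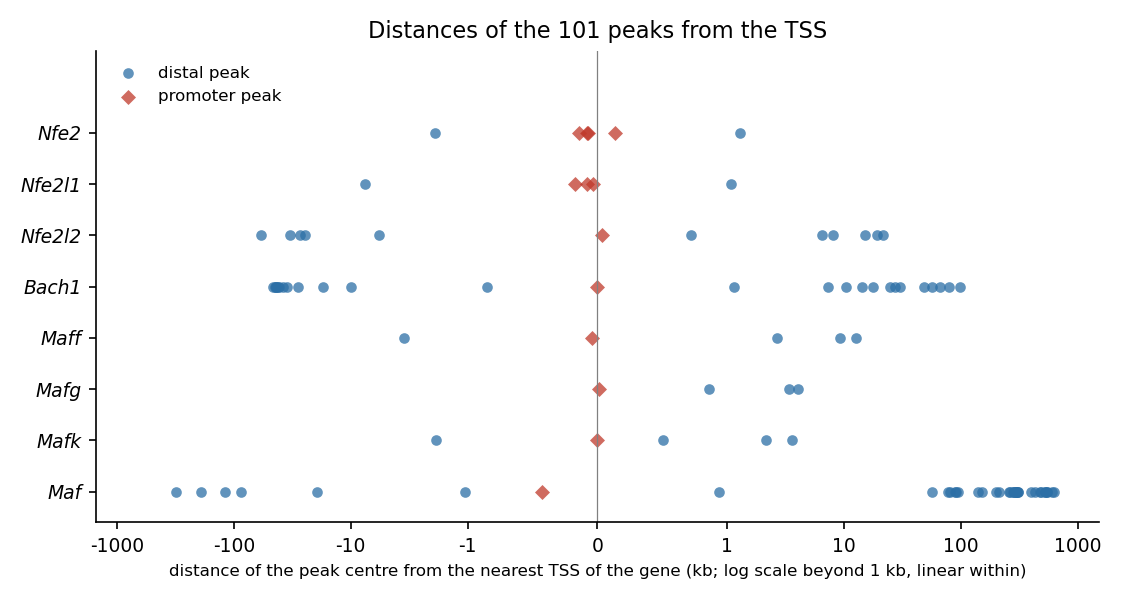
Each point is 1 of the 101 peaks, placed by the signed distance of its centre from the nearest TSS of the gene (kb, linear within 1 kb and logarithmic beyond), with promoter peaks as red diamonds and distal peaks as blue circles. The small MAF genes, Nfe2 and Nfe2l1 keep all peaks near the start, while Maf reaches from -315036 bp to +616839 bp.

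Maf, the gene of the large MAF protein of T cells and macrophages, had 38 peaks on chromosome 8, the most of the 8 genes. Its only promoter peak, chr8:115707074-115707572, was centred 429 bp upstream of the RefSeq start (115706894). GENCODE places further Maf starts 202 and 900 bp upstream of that one. By these, the peak at -429 bp was 227 bp upstream of the nearer start, and the peak at -1057 bp was 157 bp upstream of the farther one. The nearest distal peak, at +938 bp, lay in the coding exon and had 65.1% GC. Then came a stretch without a peak to +56597 bp, and on the other side one from -1057 to -19523 bp.

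Of the 37 distal Maf peaks, 27 lay over 100 kb from the TSS, and these were all the peaks at that distance among the 8 genes. They were 30.7% of the 88 distal peaks (interval 22.0% to 41.0%), beside 13.0% in the whole list, and without Maf the share was 0 of 51. The pooled share thus rested on Maf alone. Downstream, 31 distal peaks ran to +616839 bp. The last 10, from +399326 bp on, lay in intron 8 of Wwox, whose 3′ end is 354 kb downstream of the Maf start and whose own TSS is 1267242 bp away. When peaks at most 10 kb apart were joined, the Maf peaks formed 21 groups, 14 of them single peaks. The largest group held 8 peaks between +278670 and +308673 bp, in intergenic sequence, and its peak at +283650 bp had a TGANTCA core 2 bp from its centre, the closest among the 8 genes. The next largest held 5 peaks from +76989 to +94579 bp, within the noncoding gene Gm39256. Upstream, the peaks from -19523 to -315036 bp numbered 5, and the nearest of them held an NF-E2 site at chr8:115726380-115726388. By RefSeq these 5 were nearer to the noncoding gene Gm30712, whose TSS is 9.03 kb upstream of Maf, than to Maf itself.

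**Figure D3:**
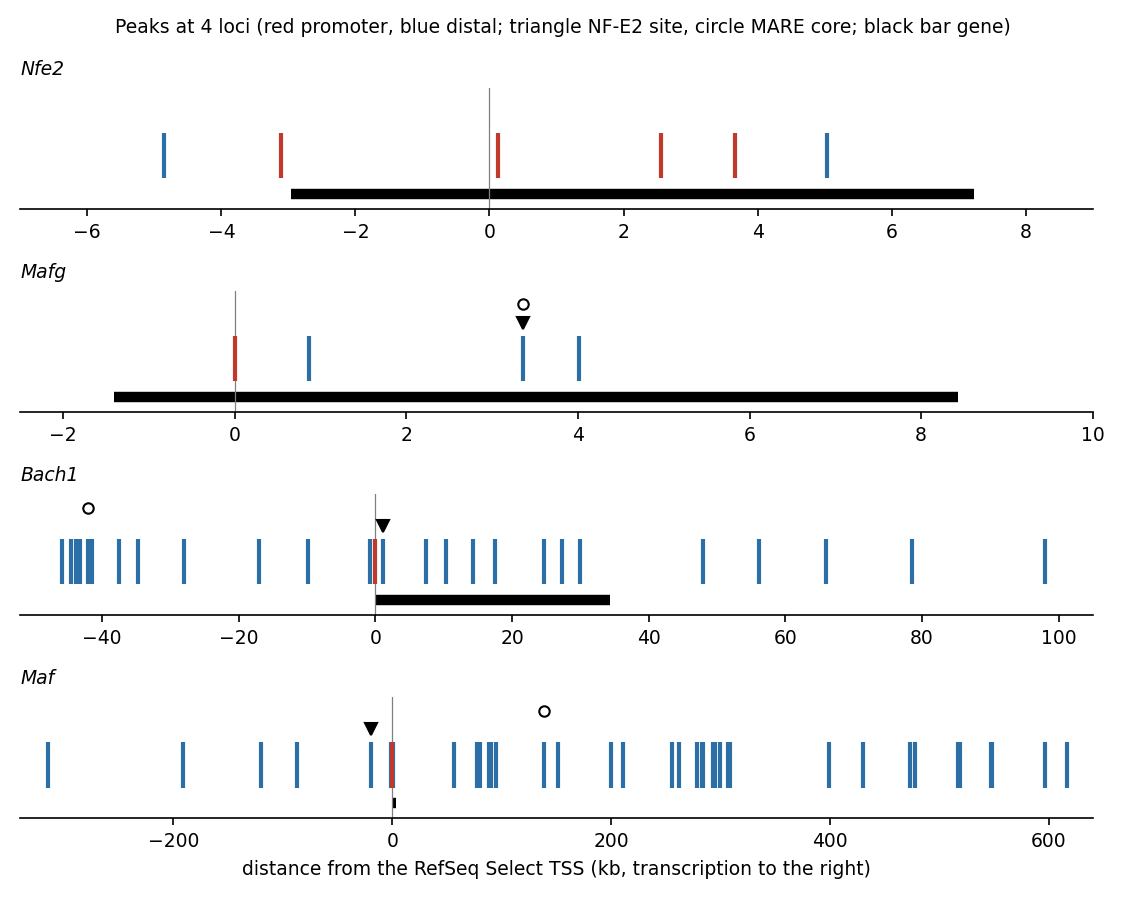
Vertical strokes mark peak centres at Nfe2, Mafg, Bach1 and Maf against the distance from the RefSeq Select TSS in kb, with transcription to the right, promoter peaks in red, distal peaks in blue and the gene as a black bar. Triangles mark the 3 peaks with an NF-E2 site and circles the 3 with a MARE core, and the group of 6 Bach1 peaks between -45821 and -41437 bp is at the left of its panel.

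Over all 8 genes, 40 of the 88 distal peaks lay outside every RefSeq gene and 48 inside one, a split not counted over all distal peaks of the list. By the annotation class of the list, intergenic peaks were 51 of 88 (58.0%, interval 47.5% to 67.7%), beside 44.6% of all distal peaks, and intronic peaks were 32 of 88 (36.4%, interval 27.1% to 46.8%), beside 48.0%. The intervals treat the 88 peaks as independent draws, although they come from 8 genes, so they are too narrow for a comparison with the list. Maf with 26 and Bach1 with 16 held most of the intergenic peaks. Of the 51 peaks in that class, 12 lay inside noncoding RefSeq genes. Within 10 kb of the TSS there were 24 distal peaks (27.3%, interval 19.1% to 37.4%), close to the 28.9% of the list. Peaks annotated on a repeat were 14 (15.9%, interval 9.72% to 25.0%), near the 17.9% of the list, 6 of them at Bach1 and 8 at Maf. The median distance of a distal peak from its TSS was 42615 bp, against 22261 bp in the list. By gene it ran from 1580 bp in Nfe2 to 279000 bp in Maf.

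Counts of peaks per gene were then set beside the room around each gene. A protein-coding gene had a median of 2 peaks (quartiles 1 and 4, maximum 89). Maf had more peaks than 99.9% of genes, Bach1 than 99.4%, Nfe2l2 than 94.5% and Nfe2 than 81.0%. Nfe2l1, Maff and Mafk each exceeded 75.4% and Mafg 68.0%. The span of sequence nearer to a TSS of the gene than to any other RefSeq gene was 638 kb for Maf and 178 kb for Bach1, and only 4.37 kb for Mafg. Per 100 kb of that span, Maf had 5.17 peaks, near the median of 4.63 over genes (quartiles 0.71 and 9.67), and more than 53.5% of them.

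The order of the genes turned over on this scale. Mafg had 91.6 peaks per 100 kb, above 99.7% of genes. Nfe2 followed with 30.6, above 98.1%, then Mafk with 26.6, above 97.2%. Maff had 20.5, Nfe2l1 17.3, Bach1 14.6 and Nfe2l2 13.9, and each lay above the upper quartile of all genes. The value of Mafg comes from 4 peaks in a very short span, so 1 peak more or less would move it strongly. That span is cut short upstream by a start of another gene, and peaks nearer to that start are not counted for Mafg. The spans of Mafk (18.8 kb), Nfe2 (19.6 kb), Maff (24.4 kb) and Nfe2l1 (28.9 kb) were also below the median over genes, 42.5 kb. Their values rest on only 5 or 6 peaks each. Nfe2l2 (86.5 kb) and Bach1 (178 kb) had spans above that median.

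**Figure D4:**
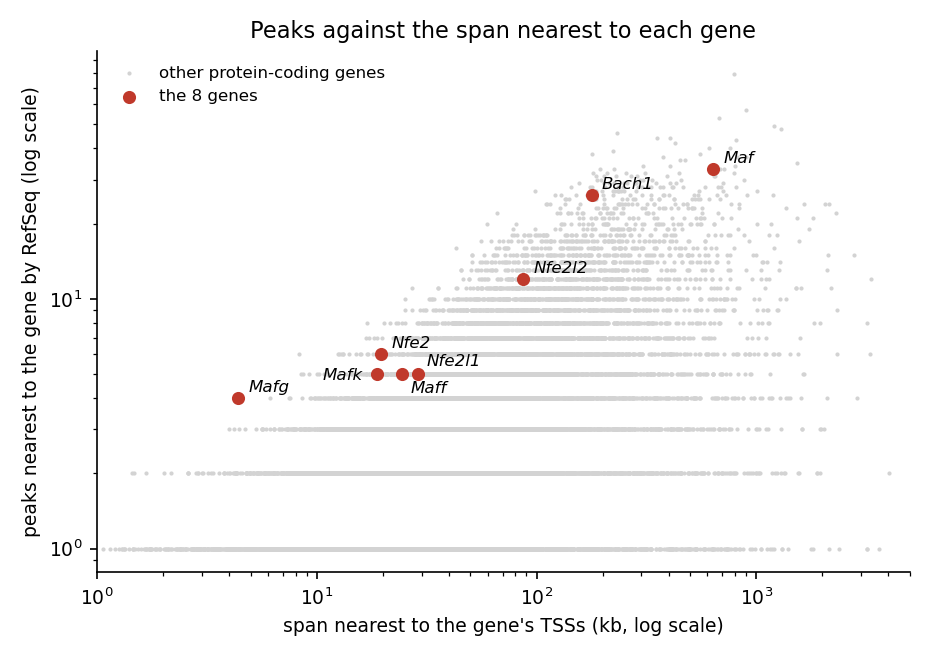
The number of peaks nearest to a gene by RefSeq is plotted against the span nearest to its TSSs in kb, both on log scales, with the 8 genes in red and other protein-coding genes with at least 1 peak in grey. Maf lies at 638 kb and 33 peaks within the grey cloud, and Mafg at 4.37 kb and 4 peaks on its upper left edge.

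Sites that these factors themselves can use were counted in their own peaks, as exact matches on either strand of the whole 499 bp. Of the 88 distal peaks, 3 held a MARE core, beside 1.98% of all distal peaks, and 3 an NF-E2 site, beside 1.92%. No promoter peak of the 13 held either, where the list had 0.896% and 0.6%. The TGANTCA core occurred in 21 distal peaks (list 16.9%) and in 1 promoter peak (list 6.8%), and 17 of these 22 peaks were named for Bach1 or Maf. Bach1 and Maf also held 64 of all 101 peaks (63.4%). ARE matches were found in 23 distal peaks (list 20.5%) and 4 promoter peaks (list 22.7%), those of Nfe2, Nfe2l1, Mafg and Mafk. At least 1 of the MARE core, NF-E2 site and ARE was present in 25 distal peaks (list 21.6%) and 4 promoter peaks (list 23.2%). The member shares, 3.41% for the MARE core and the NF-E2 site and 23.9% for the TGANTCA core, lay slightly above those of the list, from few peaks.

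Within the peaks, the TGANTCA cores were placed by their distance from the centre. The 21 distal peaks held 26 such cores, and 11 of them (42.3%) lay within 50 bp of the centre, against 30.0% of the 13454 cores in all distal peaks. In 20 of the 26 (76.9%) the middle base was C or G, beside 68.1% of the cores in all distal peaks.

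The other motifs were those of factors known from blood lineages. GATA factors (AGATAA) drive red cell and megakaryocyte genes, and their motif was in 18 distal peaks (list 26.9%) and 2 promoter peaks (list 8.66%). The motif of PU.1 (GAGGAAGT), a factor of myeloid and B cells, was in 11 (list 10.2%) and 0 (list 4.79%), and that of RUNX factors (AACCACA) in 17 (list 18.0%) and 2 (list 5.88%). The E-box bound by factors such as TAL1 (CAGCTG) was in 28 (list 30.4%) and 3 (list 26.1%), and the CACC box of KLF factors (CCACACCC) in 7 (list 5.9%) and 0 (list 5.77%). By gene and over both classes, GATA was in 8 of the 26 Bach1 peaks and 5 of the 38 Maf peaks. RUNX was in 10 of the 38 Maf peaks and 4 of the 26 Bach1 peaks. List shares were taken for each class alone, so none stands beside these counts. GATA was the motif of this group whose share among the distal peaks, 20.5%, lay furthest from that of the list.

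Of the motifs known from promoters, the GC box separated the peak classes in these genes as in the list. ETS and CRE core matches were few, and TATAAA was more frequent in distal than in promoter peaks of the list. The GC box was in 10 of 13 promoter peaks (list 57.5%) and 6 distal peaks (list 8.41%). ETS motifs were in 2 promoter peaks (list 21.3%) and 3 distal peaks (list 3.98%), and the CRE core in 1 (list 3.63%), that of Maff, and 1 (list 0.701%), the Maf peak at -1057 bp. TATAAA was in 2 promoter peaks (list 7.81%), both at Nfe2, and 16 distal peaks (list 23.5%). The promoter peaks without a GC box were the inner Nfe2 peaks and that of Maf.

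**Figure D5:**
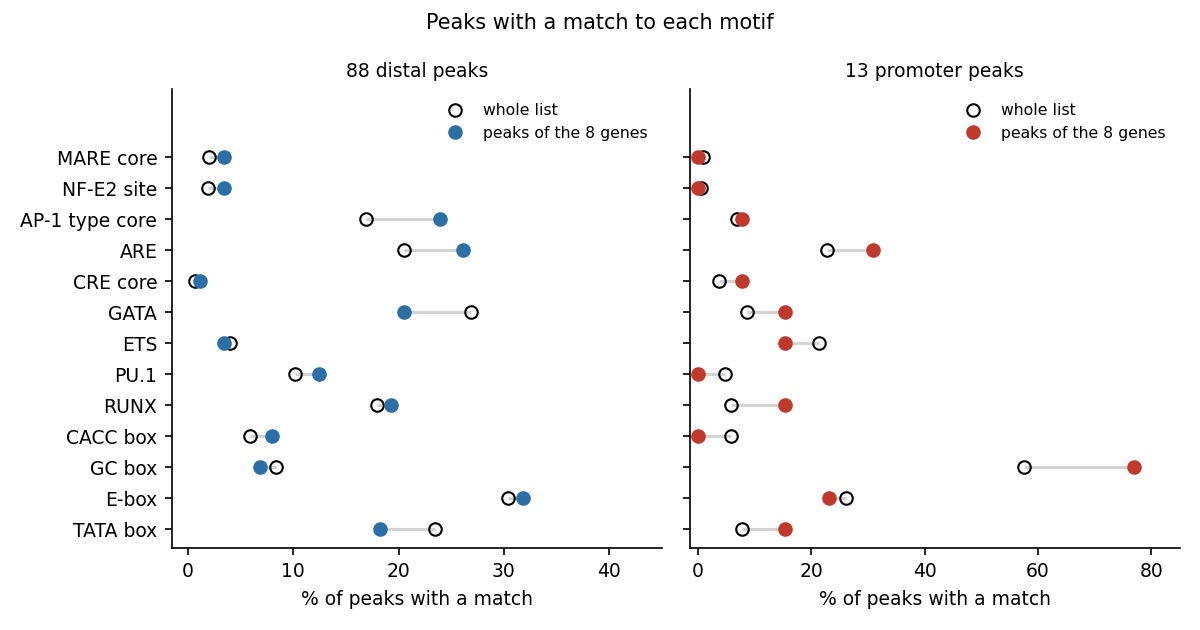
The share of peaks with a match to each motif (horizontal axes, %) is given for the peaks of the 8 genes (filled) and the whole list (open), for distal peaks at the left and promoter peaks at the right. The GC box stands at 76.9% of the 13 promoter peaks and 6.82% of the 88 distal ones, and with 13 peaks each promoter peak is worth many percentage points.

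Genes that act with these factors or are their textbook targets were looked up in a list of 34. Of these, 28 had a promoter peak, beside the 54.8% of all protein-coding genes given above. The 28 include Hbb-b1 and Hbb-b2, which were not in the set of protein-coding genes behind that share. All 10 antioxidant genes had one, among them Hmox1, which encodes the heme-degrading enzyme repressed by BACH1, and Nqo1, a quinone reductase induced by NRF2. All 6 platelet genes had one, as did 6 of 8 iron and heme genes, 4 of 5 genes that control NRF2 and 2 of 5 paralogs. The genes with the most peaks were Bach2 with 34, Gclc and Slc7a11 with 15 each, and Tbxas1 and Rab27b with 12 each. Gclc and Slc7a11 act in glutathione synthesis, and Tbxas1 makes thromboxane in platelets.

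Of the paralogs, Bach2, a repressor of B and T cells, was the counterpart of Bach1 without a promoter peak. Its 34 peaks were all distal, and the nearest was centred 15773 bp from the TSS. Mafa and Nrl had none either, with the nearest peak of Mafa 525 bp from the TSS. Sqstm1, whose product binds the NRF2 inhibitor KEAP1, missed the limit narrowly at 511 bp. The α-globin genes Hba-a1 and Hba-a2 had 1 distal and 0 peaks. They are near-identical copies and reads with several map positions had been left out, so peaks there are uncertain. The list had also been filtered, so a gene without a promoter peak in it may have had one before filtering.

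Names in the list matched the RefSeq annotation well for these genes. For 96 of the 101 peaks (95.0%) the nearest curated RefSeq TSS belonged to the same gene and its distance was within 2 bp of the deposited one. The other 5 were the upstream Maf peaks. Against the GENCODE basic annotation, which adds many small and noncoding RNA genes, 52 of the 101 peaks were nearer to a start of another gene, 33 of them at Maf, 11 at Bach1 and 8 at Nfe2l2. The peaks of the other 5 genes kept their names. Neither the RefSeq match nor the GENCODE change was counted over the whole list, so neither is shown to be particular to these genes.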

How the data were processed

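ATAC-seq libraries of 12 samples, 2 for each of 6 sorted cell types, were aligned to mm10 by the authors and their peaks called in the ENCODE pipeline, without multimapping reads. They concatenated the optimal Irreproducible Discovery Rate peaks of each cell type, then filtered them in chromVAR to the most significant, non-overlapping peaks. What was left was annotated with HOMER (4.10.2 in the submitters' processing notes). Positions and distances to the TSS were used as deposited, in bp and without normalization. The peak score deposited by the authors was 0 throughout and ranked nothing. The pooled list has no depth or values per sample.

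The 8 genes, the 34 pathway genes and the 13 motifs were chosen with earlier results of these data known. Named were all peaks at promoters, the nearest and farthest distal peak of each gene, distal peaks with a MARE core or NF-E2 site, pathway genes without a promoter peak or among the 5 with the most peaks, and neighbouring genes. Other peaks named were chosen after their values were seen. Genes and sequence came from RefSeq on GRCm38.p6, and 19017 of 19040 gene names were matched by Entrez ID. The motif search was tested on simulated data, where 1300 of 1300 planted sites were found. Alternatives concerned the gene of a peak, the promoter limit and the part of the peak searched. Python 3.11.15, pandas 2.3.3, pysam 0.24.0, scipy 1.17.1 and matplotlib 3.10.9 were used.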

Additional observations from a re-analysis of the deposited data

How the results depend on the processing

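The 101 peaks of the 8 genes depended on how a peak is given a gene. They were 96 by the nearest curated RefSeq TSS, 164 by the basal plus extension rule (a core from 2 kb before to 1 kb after the TSS, widened to the next core within 1 Mb), 35 with the centre inside the gene and 39 with any overlap of the gene. By the nearest GENCODE basic TSS, chosen after seeing the data, they were 51. Maf moved most, from 38 peaks to 74 by basal plus extension and to 1 inside the gene, since its peaks lie far from it. The 13 promoter peaks were 9 within 100 bp and 18 within 1000 bp, those of Nfe2 fell from 4 to 2 within 100 bp and by GENCODE starts, and the 28 pathway genes with a promoter peak were 22 and 30. Distal peaks were 83 to 92 for other promoter limits and 61 at no more than 100 kb. Peaks with a MARE core, NF-E2 site or ARE were 29 in whole peaks and 20 in the central 200 bp. A stricter peak score could not be applied, because the score was 0 at every peak. No paired analysis was possible because the list is pooled and holds no value per sample, and for the same reason no replicate could be left out. Depth is unknown and the list was filtered, so a gene without a peak is not shown to be closed.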
